A study of Mus musculus with 6 samples.

Results

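Endothelial cells line blood and lymph vessels, and the 42 genes described here are markers and regulators of that cell type, read from 6 RNA libraries of sorted muscle stromal cells that were gated against an endothelial surface protein. They were taken from a list of named genes and are 42 of the 22483 genes in the deposited table. They were grouped in 8 lists by role, namely junction and surface adhesion, growth factor receptors, G protein-coupled and guidance receptors, transcription factors, capillary function, vessel matrix and signalling, lymphatic genes, and activation and haemostasis. The libraries came from hind limb muscle of adult Swiss white mice with no transgene or mutation named, and there was 1 library for each of 3 sorted subpopulations in each of 2 states. The subpopulations were CD140a(-)/Sca1(+), CD140a(+)/Sca1(-) and CD140a(+)/Sca1(+), where CD140a is the platelet-derived growth factor receptor encoded by Pdgfra and Sca1 is the surface protein encoded by Ly6a. The control state was untreated contralateral muscle, and the injured state was taken on day 3, once 20 uM of the membrane-lysing venom protein cardiotoxin had been injected. Cells positive for CD45 and CD11b (leukocytes) or CD31, the endothelial adhesion protein encoded by Pecam1, were excluded by the gate in both states. The muscle is the tibialis anterior in the sample labels but the gastrocnemius and soleus in the study's text on acute injury, and how many mice went into a library was not stated.

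Endothelial cells hold together through adherens and tight junctions, built on vascular endothelial cadherin and claudin 5, and they answer to vascular endothelial growth factor and angiopoietins through a small set of tyrosine kinase receptors. Their identity rests on ETS family factors such as Erg and on SoxF factors (Sox7, Sox17 and Sox18). In muscle, capillary cells take up fatty acids for the fibers, venular cells store P-selectin and von Willebrand factor for release on activation, and lymphatic cells are specified by Prox1.

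Values are normalized counts, obtained by undoing the variance-stabilizing log2 transformation of the deposited table. Wherever 3 control or 3 injured values are given together, they follow the order CD140a(-)/Sca1(+), CD140a(+)/Sca1(-), CD140a(+)/Sca1(+). The depth of the libraries, estimated from the size of 1 read, lay between 2094353 and 14173590 reads. The injured CD140a(+)/Sca1(-) library stood apart, with 69.1% of all genes listed at 0 against 28.2% to 39.0% in the others, and 928 of the 5274 genes that reached 20 normalized counts in every other library were at 0 in it. The control labels were not matched by Pdgfra, which stood at 211, 33.6 and 26.3, so both control libraries labelled CD140a(+) were below the one labelled CD140a(-). In the injured libraries Pdgfra stood at 335, 203 and 1240. Ly6a stood at 5850, 70.4 and 253 in control and at 1177, 2.09 and 4099 in injured muscle, lowest in both states in the library labelled Sca1(-). Subpopulation names below are those of the labels, and where the text says that 1 pair carries a gene's change, the value without that pair follows.

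Promoters are shown for the genes with the highest mean level among the junction genes, the growth factor receptors and the capillary genes, because ETS and SoxF factors, some of them among the 42 genes, are known to act on endothelial promoters. Each is the stretch of 250 bases just before the start site in RefSeq on GRCm38.p6, read on the gene's strand. Capitals mark AGGAAG, an ETS-type motif, and ACAAT, a Sox-type motif, or their reverse complements CTTCCT and ATTGT. Emcn, on chr3:137340828-137341077 (+ strand), held 2 ETS-type and 1 Sox-type match.
Emcn: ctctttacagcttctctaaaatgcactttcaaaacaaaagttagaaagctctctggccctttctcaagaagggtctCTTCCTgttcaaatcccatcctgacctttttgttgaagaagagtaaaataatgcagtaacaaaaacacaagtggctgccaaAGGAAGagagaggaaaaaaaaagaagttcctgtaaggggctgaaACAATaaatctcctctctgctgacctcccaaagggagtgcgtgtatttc
Eng, on chr2:32646345-32646594 (+ strand), held 2 ETS-type matches, and the last of them ends just before the start site.
Eng: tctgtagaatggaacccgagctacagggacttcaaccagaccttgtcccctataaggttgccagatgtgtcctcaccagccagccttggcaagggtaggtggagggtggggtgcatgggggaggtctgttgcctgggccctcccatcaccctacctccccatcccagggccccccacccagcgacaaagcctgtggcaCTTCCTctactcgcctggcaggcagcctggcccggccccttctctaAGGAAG
Cd36, on chr5:17835897-17836146 (- strand), held 2 Sox-type matches and no ETS-type match. In GENCODE M21 this gene spans chr5:17781690-17888801, so the start site used lies inside it, and the stretch before its outermost start was not searched.
Cd36: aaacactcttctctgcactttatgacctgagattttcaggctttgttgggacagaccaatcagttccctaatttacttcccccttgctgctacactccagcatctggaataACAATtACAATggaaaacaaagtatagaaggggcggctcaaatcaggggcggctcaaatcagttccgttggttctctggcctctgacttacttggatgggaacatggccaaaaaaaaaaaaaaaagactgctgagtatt
Sox17, the transcription factor with the highest mean level, had no entry. Promoters were found for 23 of the 42 genes, as 29 start sites. AGGAAG was present in 14 of these 29 and in 29.5% of all 32851 promoters. A longer ETS-type motif, CCGGAAG, which shares the letters GGAAG with AGGAAG, was present in 1 of 29 and in 6.91% of all. ACAAT was present in 7 of 29 and in 27.7% of all. These matches describe letters in the window and not binding.

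The main comparison asked which endothelial genes differed between injured and control libraries. Of the 42 genes, 22 fell and 0 rose, at p under 0.05 and at least a 3-fold change in a limma fit with subpopulation as block (n = 3 libraries per state, 1 of each subpopulation). The background for the same rule was 3.46% of 15532 tested genes lower and 2.3% higher. The median log2 change was -2.14 over the 41 members tested and -0.33 over all genes tested. The genes that fell ranged from Icam2 at -1.97 to Ednrb at -5.26 on the log2 scale of the deposited values, a scale that understates the change of genes with few reads. Aplnr, the apelin receptor, was too low to be tested.

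Sets of libraries were often fully apart. In 25 of the 42 genes all 3 control libraries lay above all 3 injured libraries, which held for 11.2% of the tested genes. No gene of the table had an adjusted p under 0.05 (Benjamini-Hochberg over all tested genes, limma), and the 22 genes that fell had adjusted p between 0.192 and 0.505. At an unadjusted p under 0.05 stood 27 of the 42 genes and 1241 genes in all. Leaving out the CD140a(+)/Sca1(-) pair, which holds the library that stood apart, gave 25 genes lower, namely all 22 with Cd36 (-2.34), Clec14a (-2.28) and Plvap (-1.60). Without the CD140a(-)/Sca1(+) pair there were 20 and without the CD140a(+)/Sca1(+) pair 21. In bulk libraries of sorted cells, fewer cells of a type and less RNA per cell cannot be told apart.

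**Figure D1:**
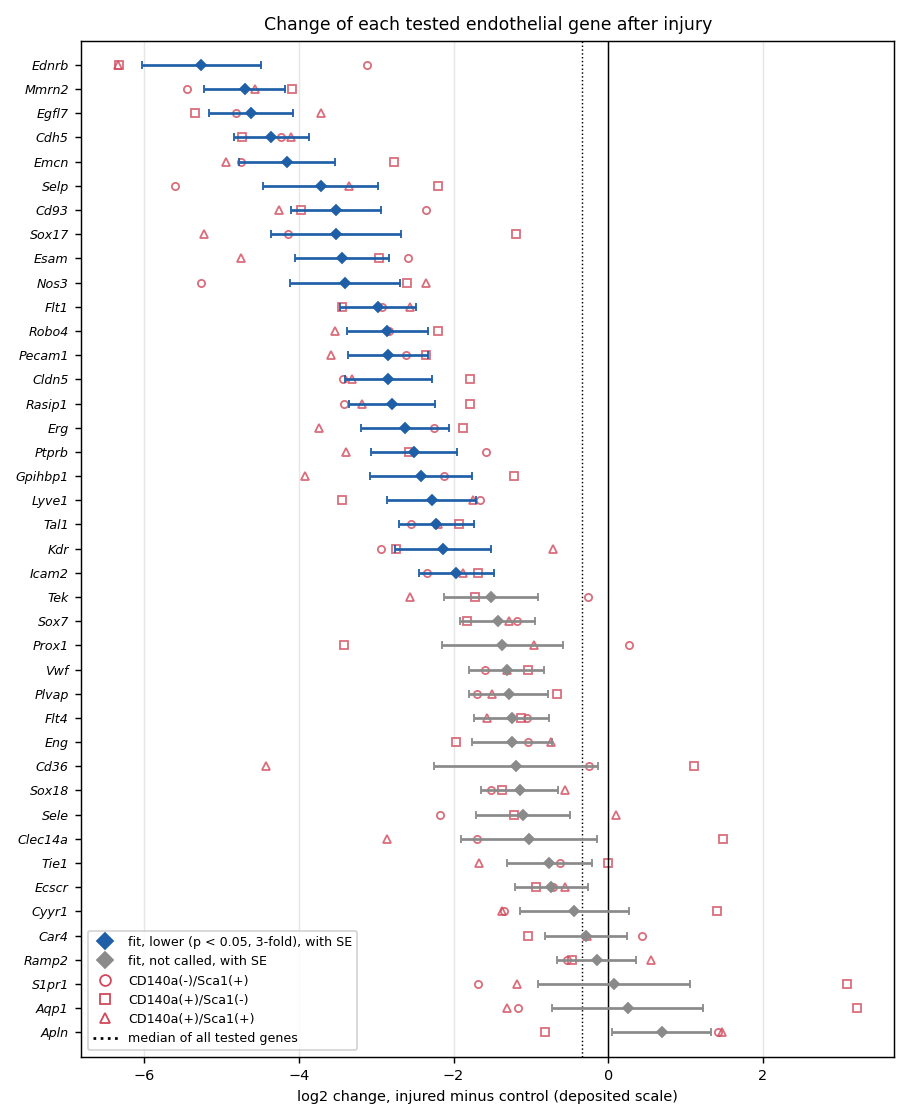
Each row is 1 of the 41 tested genes, and the horizontal axis is the log2 change, injured minus control, on the deposited scale. Diamonds are the fitted change over the 3 pairs with its standard error (blue for the 22 genes that fell, grey for the others), open symbols are the single pair of libraries of each subpopulation, and the dotted line is the median of all tested genes at -0.33. The 22 genes that fell lie left of it in all 3 pairs, while S1pr1, Aqp1, Cd36, Clec14a and Cyyr1 each have their CD140a(+)/Sca1(-) pair to the right of 0.

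Markers of other cell types moved with the state too. Among 8 red blood cell genes, 4 fell (Hba-a1, Hba-a2, Hbb-bs and Hbb-bt), and their summed level was 706 to 12168 in control and 0 to 669 in injured libraries. The list's control sums of 706, 1981 and 12168 were highest in CD140a(+)/Sca1(+), the library in which most endothelial genes were also highest. Of 10 pericyte and smooth muscle genes, Rgs5, Notch3 and Myh11 fell and Cspg4 rose, with summed levels of 625 to 1077 in control and 438 to 1213 in injured libraries. Rgs5, a pericyte marker, stood at 413, 88.0 and 465 in control and at 8.92, 0 and 6.89 in injured libraries. Of 10 leukocyte genes only Lyz2 rose and 0 fell, with summed levels of 95.0 to 552 in control and 231 to 579 in injured libraries. Over the 6 libraries, Ptprc, which encodes the gated CD45, stood between 0 and 20.5 normalized counts. Itgam, which encodes the gated CD11b, stood between 8.48 and 27.5, and Csf1r between 49.2 and 175. S100a8, Cd79a and Ms4a1 were highest in the CD140a(-)/Sca1(+) control library, at 111, 90.7 and 48.4. The macrophage genes Cd68 and Adgre1 were instead highest in the injured CD140a(+)/Sca1(-) library. Cd68 stood at 11.6, 5.04 and 6.06 in control and at 13.1, 114 and 23.4 in injured libraries. Adgre1 stood at 1.48, 0 and 0 in control and at 1.05, 13.5 and 2.61 in injured libraries, and neither gene passed. Of 10 fibro-adipogenic progenitor genes, Pdgfra, Lum and Mfap5 rose and 0 fell. The list summed to 15839, 4883 and 1089 in control and to 15936, 8634 and 13994 in injured libraries. Its control sum was thus lowest in CD140a(+)/Sca1(+), where most endothelial genes were highest. Of 7 satellite cell and myoblast genes, 0 fell and only Vcam1 rose. Pax7, at 1.31, 3.85 and 6.18, and Myod1, at 3.75, 8.35 and 11.5, were low in control libraries. Both were listed at 0 in all injured libraries and did not pass. Des stood at 23.8, 16.7 and 34.4 in control and at 64.6, 478 and 37.6 in injured libraries and did not pass. Whether these marker levels reflect the cells present, and whether they have a part in the endothelial result, was not tested.

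The junction and surface adhesion genes all fell, 7 of 7, and in each of them the control libraries lay above the injured libraries. Emcn, which encodes the sialomucin endomucin of capillary and venular endothelium, stood at 287, 129 and 879 in control and at 2.41, 10.4 and 18.3 in injured libraries. The lowest control value was several times the highest injured value, and the log2 change was -4.16 (SE 0.62, adjusted p = 0.261). Cdh5, vascular endothelial cadherin of the adherens junction, stood at 506, 146 and 547 in control and at 17.0, 0 and 21.6 in injured libraries. The injured values above 0 were 29.8-fold and 25.3-fold below their own control library, and the log2 change was -4.36 (SE 0.49, adjusted p = 0.192), the smallest adjusted p of any member together with Mmrn2. Esam, an adhesion molecule of endothelial tight junctions, stood at 44.2, 35.3 and 276 in control and at 1.17, 0 and 2.12 in injured libraries, so the libraries did not overlap. Its log2 change was -3.44 (SE 0.61).

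The gated protein's own gene was still read. Pecam1, shown because CD31 was the gate, stood at 47.4, 19.8 and 105 in control and at 1.39, 0 and 1.51 in injured libraries. Both injured values above 0 rest on few reads, and the log2 change was -2.85 (SE 0.52). Ptprb, the vascular endothelial phosphatase, fell by 2.51 on the log2 scale. Cldn5, the tight junction claudin, fell by 2.84, and Icam2, an adhesion ligand for leukocyte integrins, fell by 1.97. The call of Icam2 was lost without the CD140a(-)/Sca1(+) pair (log2 change -1.78) and with quantile normalization (-1.30). Cldn5 and Icam2 were listed at 0 in all 3 injured libraries.

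Of the 5 growth factor receptor genes, Flt1 and Kdr fell and Tek, Tie1 and Eng did not pass. Eng encodes endoglin, a coreceptor for transforming growth factor beta and bone morphogenetic proteins that stromal progenitors also carry. It stood at 333, 193 and 175 in control and at 156, 41.2 and 100.2 in injured libraries. The sets did not overlap, but the lowest control and highest injured values were close, and the log2 change was -1.25 (SE 0.52, adjusted p = 0.624). Flt1, a vascular endothelial growth factor receptor, stood at 315, 53.4 and 468 in control and at 32.1, 0 and 69.6 in injured libraries. The injured CD140a(+)/Sca1(+) value was above the control CD140a(+)/Sca1(-) value, so the sets overlapped, although each pair was lower after injury. The log2 change of Flt1 was -2.98 (SE 0.50, adjusted p = 0.289). Kdr, the main signalling receptor for the same growth factor, stood at 243, 28.9 and 154 in control and at 22.4, 0 and 89.0 in injured libraries. Here too the sets overlapped, and the CD140a(+)/Sca1(+) pair differed by only 1.73-fold against 10.9-fold in the CD140a(-)/Sca1(+) pair. The log2 change of Kdr was -2.14 (SE 0.62), and the call was lost without the CD140a(-)/Sca1(+) pair and under 3 other settings. Tek, the angiopoietin receptor, had a log2 change of -1.52 at an unadjusted p of 0.0466 and missed the 3-fold limit, which it passed without the CD140a(-)/Sca1(+) pair (-2.14). Tie1, its partner receptor, was listed at 0 in 4 of the 6 libraries.

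Among the 5 G protein-coupled and guidance receptor genes, Ednrb and Robo4 fell and S1pr1, Ramp2 and Aplnr did not. Ednrb, the endothelin receptor type B, stood at 451, 464 and 7421 in control and at 41.9, 0 and 80.5 in injured libraries. Its control level was alike in 2 subpopulations and far higher in CD140a(+)/Sca1(+), and every control value was above every injured value. The log2 change was -5.26 (SE 0.77, adjusted p = 0.261), the largest of the 42 genes. Robo4, a guidance receptor that stabilizes vessels, stood at 31.3, 16.7 and 57.4 in control and was listed at 0 in all 3 injured libraries, with a log2 change of -2.86 (SE 0.52). S1pr1, the sphingosine 1-phosphate receptor of endothelium and lymphocytes, went another way. It stood at 224, 23.8 and 92.7 in control and at 62.0, 282 and 35.0 in injured libraries. Injured values were lower in 2 pairs, by 3.61-fold in CD140a(-)/Sca1(+) and 2.65-fold in CD140a(+)/Sca1(+), and 11.9-fold higher in CD140a(+)/Sca1(-), so the fitted log2 change was 0.07 (SE 0.99). Without that last pair it was -1.43.

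Of the 5 transcription factor genes, Sox17, Erg and Tal1 fell, while Sox7 and Sox18 did not pass. For all 5, every control library was above every injured library. Sox17, a SoxF factor of arterial endothelium, stood at 92.9, 17.1 and 302 in control and at 0, 3.17 and 0.704 in injured libraries. The control libraries differed widely among themselves, all of them above the injured ones, and the log2 change was -3.52 (SE 0.84, adjusted p = 0.434). Erg, the ETS factor that maintains endothelial junction genes, stood at 17.6, 11.6 and 68.1 in control and was listed at 0 in all injured libraries, with a log2 change of -2.63 (SE 0.57). Tal1, a basic helix-loop-helix factor of blood and vessel development, stood at 23.9, 12.2 and 41.5 in control and at 0, 0 and 2.65 in injured libraries. Its log2 change was -2.23 (SE 0.48). Sox7 and Sox18 had log2 changes of -1.43 and -1.15, below the 3-fold limit.

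Capillary genes were divided. Nos3 and Gpihbp1 fell, and Cd36, Car4, Aqp1 and Plvap did not pass. Cd36, a fatty acid transporter that adipocytes and macrophages also carry, stood at 150.2, 139 and 2164 in control and at 125, 312 and 89.4 in injured libraries. Only the CD140a(+)/Sca1(+) control library was high, at 24.2-fold above its injured library, and the injured CD140a(+)/Sca1(-) library was 2.24-fold above its control. The fitted log2 change was -1.19 (SE 1.06), and without the CD140a(+)/Sca1(+) pair it was 0.43. Nos3, the endothelial nitric oxide synthase, stood at 216, 25.1 and 89.2 in control and at 0, 0 and 9.54 in injured libraries. These sets did not overlap, and the log2 change was -3.41 (SE 0.71). Gpihbp1, which carries lipoprotein lipase to the capillary lumen, stood at 15.3, 4.44 and 78.5 in control and was listed at 0 in all injured libraries. Its log2 change was -2.42 (SE 0.66), and the call was lost without the CD140a(-)/Sca1(+) pair and without the CD140a(+)/Sca1(+) pair. It was also lost with no filter and with an unmoderated test. Aqp1, a water channel, stood at 11.4, 0 and 9.71 in control and at 1.46, 44.2 and 0.53 in injured libraries. It was lower in the 2 Sca1(+) pairs and higher in CD140a(+)/Sca1(-), with a fitted log2 change of 0.25 (SE 0.97), or -1.23 without that pair. Plvap, the diaphragm protein of fenestrae and caveolae, had a log2 change of -1.29, and Car4, a capillary carbonic anhydrase, of -0.29.

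Of the 8 vessel matrix and signalling genes, Mmrn2, Egfl7, Cd93 and Rasip1 fell. Cd93, a surface receptor that binds the matrix protein encoded by Mmrn2, stood at 428, 153 and 1264 in control and at 74.5, 1.96 and 55.6 in injured libraries. Mmrn2 itself stood at 246, 89.3 and 286 in control and at 0, 0 and 3.51 in injured libraries. Both genes had every control library above every injured library. The log2 change of Cd93 was -3.53 (SE 0.58) and that of Mmrn2 was -4.70 (SE 0.52, adjusted p = 0.192). Clec14a, which encodes another surface receptor for the same matrix protein, did not pass, at -1.02. Egfl7, a secreted endothelial factor whose gene hosts the microRNA Mir126a, stood at 716, 229 and 752 in control and at 15.5, 0 and 47.1 in injured libraries. Its libraries were fully apart, with a log2 change of -4.62 (SE 0.55, adjusted p = 0.205). Rasip1, a junction and lumen regulator, fell by 2.79. Apln, the apelin ligand of tip cells, was the gene with the highest fitted change, and stood at 2.25, 1.93 and 10.6 in control and at 18.4, 0 and 46.1 in injured libraries. It was 8.19-fold and 4.35-fold higher after injury in the 2 Sca1(+) pairs and was listed at 0 in the other injured library, so its log2 change of 0.69 (SE 0.64) did not pass. Ecscr and Cyyr1 had log2 changes of -0.73 and -0.44.

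Among the lymphatic genes 1 of 3 fell. Lyve1, a hyaluronan receptor of lymphatic endothelium that some macrophages carry, stood at 8.81, 53.3 and 27.4 in control and at 0, 0 and 2.65 in injured libraries. The sets were apart, with a log2 change of -2.29 (SE 0.58, adjusted p = 0.449). Prox1, the lymphatic fate factor, stood at 2.46, 52.2 and 7.45 in control and at 4.25, 0 and 0.994 in injured libraries. The difference lay in the CD140a(+)/Sca1(-) pair, and the log2 change of -1.37 (SE 0.78) did not pass and was -0.34 without that pair. Flt4, the receptor for lymphatic growth factors, stood at 8.06, 3.85 and 34.4 in control and at 0.877, 0 and 5.83 in injured libraries, so the sets overlapped, at a log2 change of -1.25 (SE 0.48).

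Of the activation and haemostasis genes, Selp fell and Sele and Vwf did not pass. Selp, which encodes P-selectin of activated endothelium and platelets, stood at 649, 62.1 and 90.9 in control and at 4.32, 6.27 and 1.69 in injured libraries. Every control value was above every injured value, and the log2 change was -3.72 (SE 0.74, adjusted p = 0.383). Sele, E-selectin, stood at 60.2, 4.50 and 3.53 in control and at 6.14, 0 and 4.24 in injured libraries. A single control library was high, and the log2 change was -1.10 (SE 0.61), or -0.56 without the CD140a(-)/Sca1(+) pair. Vwf, von Willebrand factor, stood at 8.06, 3.17 and 5.23 in control and was listed at 0 in all injured libraries, with a log2 change of -1.31 (SE 0.48) that missed the 3-fold limit on the deposited scale.

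**Figure D2:**
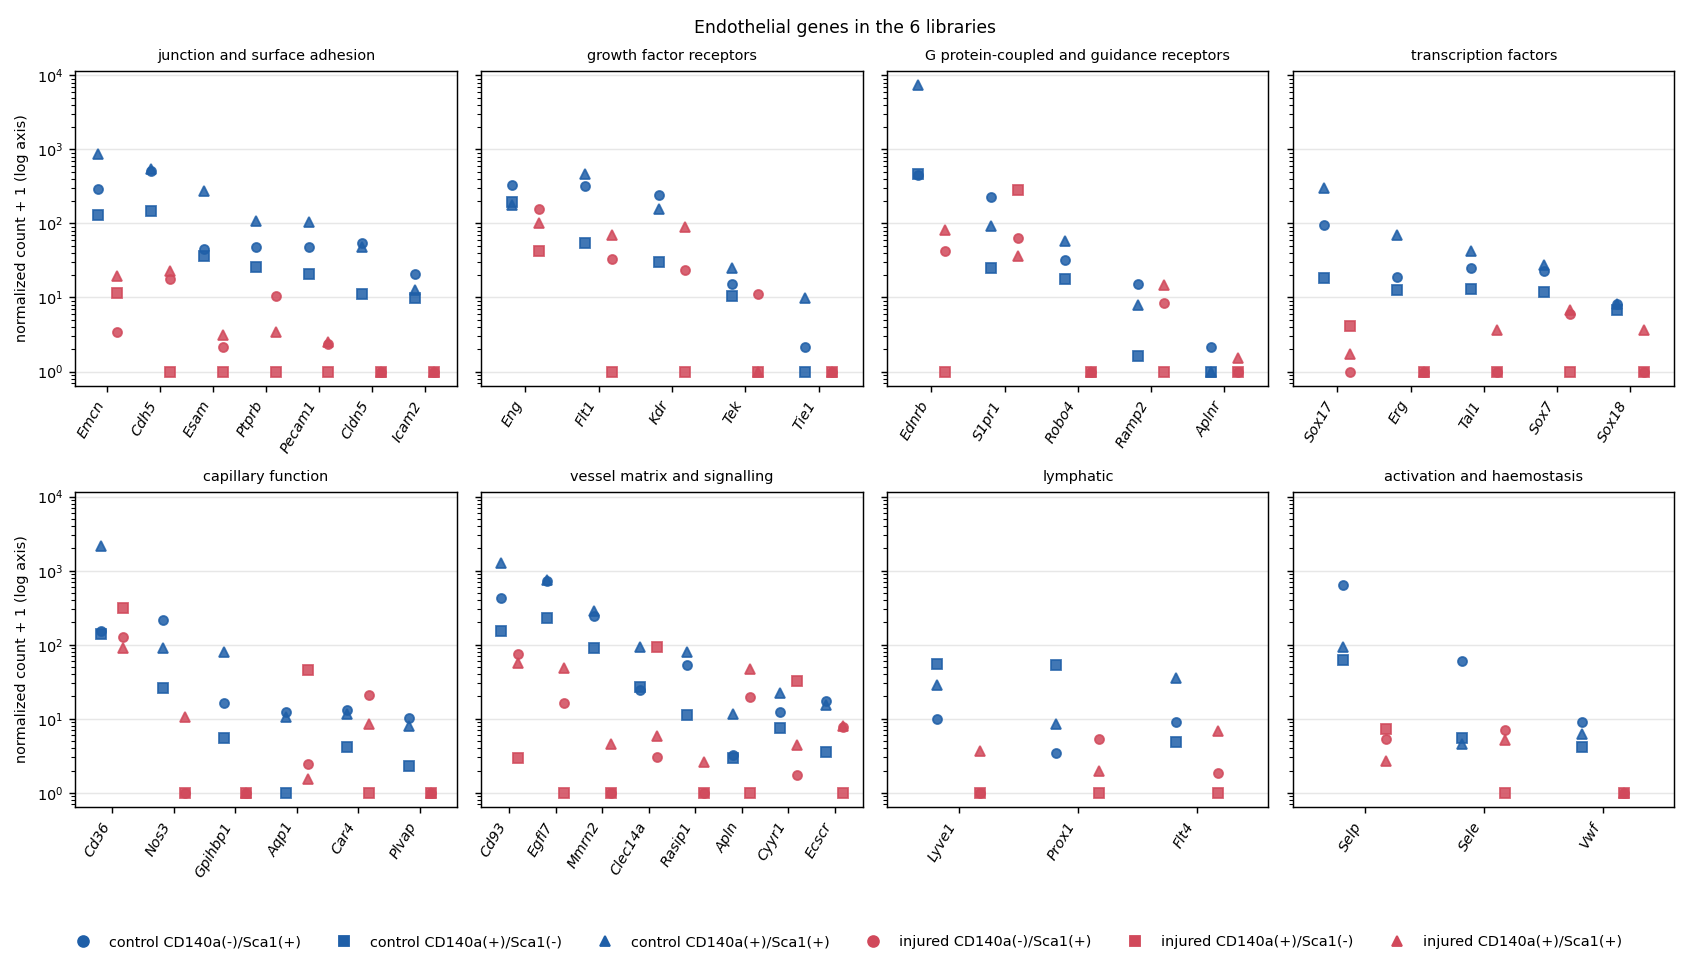
Normalized counts plus 1, on a log axis, of all 42 genes in the 6 libraries, 1 panel per list, with genes ordered by their mean level. Blue symbols are control and red symbols injured libraries, and the shape gives the subpopulation, so that points at 1 are genes listed at 0. All 7 junction genes and all 5 transcription factor genes have 3 blue symbols above 3 red ones, and the red squares of S1pr1, Cd36, Aqp1, Clec14a and Cyyr1 lie above their blue squares.

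Within single subpopulations, 1 injured library was set against 1 control library, with no test, and a 3-fold difference was counted on the deposited log2 scale, which is narrower than that of normalized counts for genes with few reads. The CD140a(-)/Sca1(+) pair had 26 of the 42 genes at least 3-fold lower, where the background was 4.35% of tested genes. For CD140a(+)/Sca1(+) the count was 25, against 6.07%. The CD140a(+)/Sca1(-) pair, which holds the library that stood apart, had 24, against 29.4%. Among genes that reached 20 normalized counts in each control library, that injured library had 9 of 16 members at 0 and 21.2% of all 5842 such genes. At least 3-fold higher were 0, 2 and 0 genes in the order of the labels, against 1.97%, 8.31% and 10.4% of tested genes, and the 2 on that scale were S1pr1 and Aqp1. By normalized counts, Clec14a (3.55-fold) and Cyyr1 (4.91-fold) in CD140a(+)/Sca1(-) and Apln in both Sca1(+) pairs were also over 3-fold higher. In 30 of the 42 genes all 3 pairs were lower after injury, but the share of all tested genes for which this held was not counted. Whether the change differed between subpopulations could not be tested with 1 library each.

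The endothelial genes together held a small part of every library. Their share of all normalized counts was 0.242%, 0.100% and 0.766% in control and 0.0313%, 0.0401% and 0.0342% in injured libraries. Every control share was above every injured share. The 95% Wilson intervals, which cover counting error only, ran from 0.0968% to 0.104% for the lowest control library and from 0.0375% to 0.0429% for the highest injured library. Ednrb made up much of the CD140a(+)/Sca1(+) control share, which was 0.408% without it. In the injured CD140a(+)/Sca1(-) library, Cd36 (312), S1pr1 (282) and Clec14a (91.3) made up most of the 824 normalized counts of the members. The junction genes held 0.0447%, 0.0179% and 0.0952% in control and 0.00152%, 0.000508% and 0.00213% in injured libraries. The order of the 3 control libraries was thus the same for the whole group and for the junction genes, with CD140a(+)/Sca1(-) lowest, and the injured shares did not keep that order for the whole group.

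**Figure D3:**
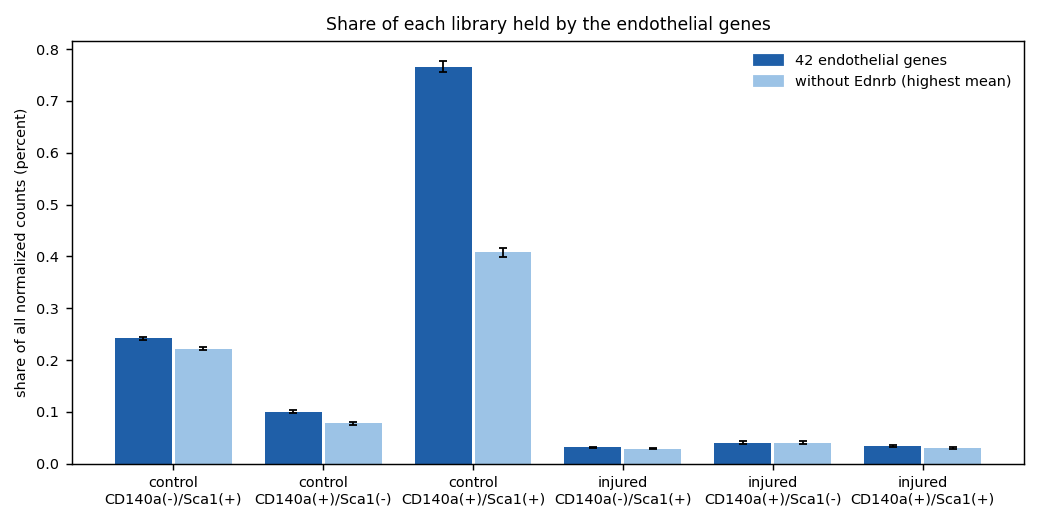
Share of all normalized counts, in percent, held by the 42 endothelial genes (dark bars) and by the 41 genes without Ednrb (light bars) in each library, with 95% Wilson intervals of the estimated reads. The control shares lie between 0.100% and 0.766% and the injured shares between 0.0313% and 0.0401%.

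Control libraries were then compared with each other to see which vessel genes each subpopulation carried, as 1 library each and without a test between them. Of the 42 genes, 24 were highest in the double positive library, 16 in CD140a(-)/Sca1(+) and 2 in CD140a(+)/Sca1(-), while of all tested genes 30.7%, 41.4% and 27.9% were. Lowest in CD140a(+)/Sca1(-) were 36 of the 42, against 35.8% of tested genes. The 2 genes highest in CD140a(+)/Sca1(-) were the lymphatic genes Prox1 and Lyve1. Prox1 was 21.2-fold (11.8 to 41.8) above CD140a(-)/Sca1(+) and 7.01-fold (3.57 to 17.6) above CD140a(+)/Sca1(+). Ranges in brackets are 95% intervals of an exact method, run on estimated reads rounded to whole numbers, so they are approximate. Lyve1 was 6.05-fold (4.18 to 8.85) and 1.95-fold (1.28 to 3.05) above them. Flt4, the third lymphatic gene, did not follow and was highest in CD140a(+)/Sca1(+), 8.93-fold (3.75 to 25.8) above CD140a(+)/Sca1(-). From the wider list of endothelial regulators, Reln, a secreted protein of lymphatic vessels, stood at 1.28, 71.9 and 17.2 in the control libraries. The lymphatic chemokine gene Ccl21a stood at 0.937, 27.0 and 0.883, and both genes were highest in CD140a(+)/Sca1(-). Pdpn and Foxc2, lymphatic genes of the same list, did not follow and were highest in CD140a(-)/Sca1(+). Pdpn stood at 673, 233 and 91.8, and Foxc2, with few reads, at 2.25, 0.642 and 0.

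The activation genes were highest in the CD140a(-)/Sca1(+) control library. Selp was 10.5-fold (8.51 to 12.9) above CD140a(+)/Sca1(-) and 7.14-fold (5.87 to 8.77) above CD140a(+)/Sca1(+), and Sele was 13.4-fold (6.42 to 33.5) and 17.0-fold (6.59 to 62.9) above them. The intervals for Vwf included 1, at 2.54-fold (0.996 to 8.12) and 1.54-fold (0.645 to 4.37). Ackr1, a chemokine receptor of venules outside the 42 genes, was also highest there, at 93.8, 13.7 and 30.4.

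Ednrb and the fatty acid handling genes Cd36 and Gpihbp1 were among the 24 genes that were highest in the CD140a(+)/Sca1(+) control library. Cd36 was 14.4-fold (13.3 to 15.6) above CD140a(-)/Sca1(+) and 15.6-fold (13.5 to 17.9) above CD140a(+)/Sca1(-). Gpihbp1 was 5.12-fold (3.74 to 6.99) and 17.7-fold (8.14 to 44.7) above them, and Ednrb 16.5-fold (15.7 to 17.2) and 16.0-fold (14.8 to 17.3). Genes of other lists were also above them, such as Esam (6.25-fold and 7.82-fold) and Emcn (3.07-fold and 6.80-fold). Cd93 (2.96-fold and 8.27-fold) and Flt4 (4.27-fold and 8.93-fold) were too, so the excess was not particular to fatty acid genes. Nos3, Plvap, Car4 and Aqp1, the other capillary genes, were instead highest in CD140a(-)/Sca1(+). The intervals cover counting error and not the spread between animals.

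**Figure D4:**
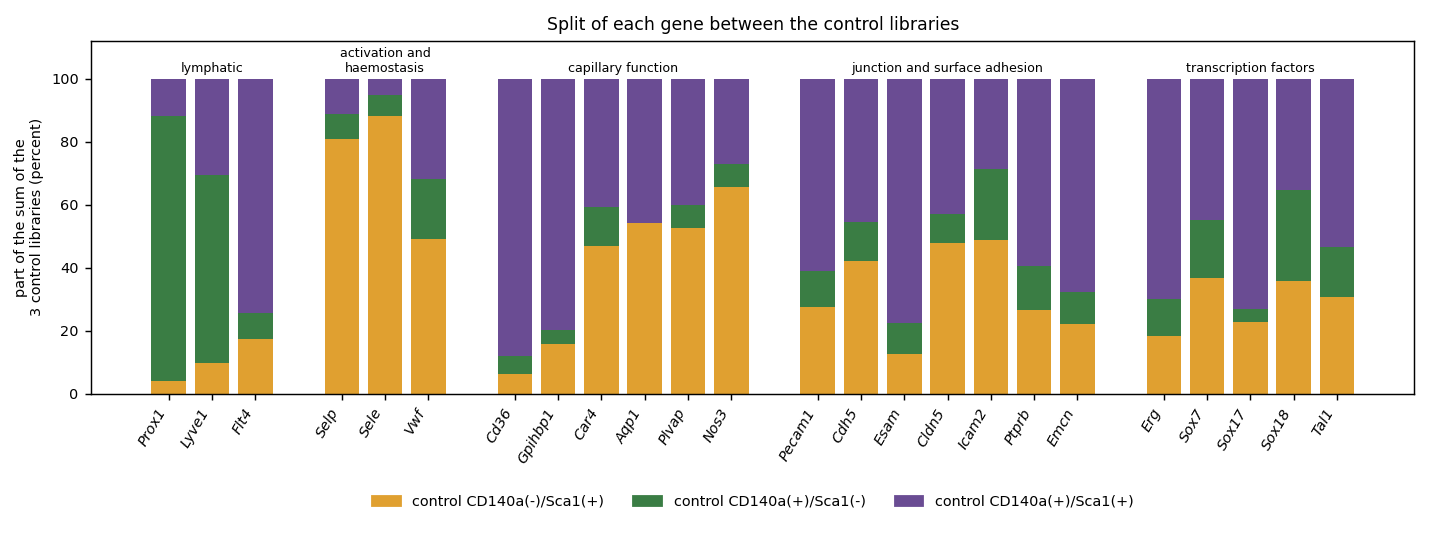
Each bar is 1 gene and divides the sum of its normalized counts over the 3 control libraries, in percent, between CD140a(-)/Sca1(+) (yellow), CD140a(+)/Sca1(-) (green) and CD140a(+)/Sca1(+) (purple). Green is the widest part for Prox1 and Lyve1, and yellow for Selp, Sele and Vwf. Purple is the widest part for Cd36 and Gpihbp1, and also for Flt4, Esam, Emcn, Erg and Sox17. Most junction and transcription factor genes are divided mainly between yellow and purple.

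Over both states, each subpopulation was compared with the mean of the other 2, with state as block (n = 2 libraries per subpopulation). In CD140a(+)/Sca1(-), 7 genes were lower and 0 higher, against 3.73% and 0.657% of tested genes. These were Flt1 (-2.97, SE 0.53), Kdr (-2.82), Ednrb (-2.76), Cd93 (-2.52), Egfl7 (-2.17), Cdh5 (-2.05) and Apln (-1.66), and each adjusted p was 0.615. In CD140a(+)/Sca1(+), Ednrb (3.18, SE 0.82), Flt1 (2.03), Kdr (1.78) and Cd93 (1.70) were higher and 0 lower, against 1.32% and 0.47%. All of these genes were also among those lower in CD140a(+)/Sca1(-). Both comparisons use the same libraries, so they are not separate results. In CD140a(-)/Sca1(+) only Sele was higher (1.63, SE 0.64) and 0 were lower, against 1.33% and 0.283%. No adjusted p was below 0.05, and the low values in CD140a(+)/Sca1(-) include those of the injured library that stood apart.

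Other genes of the same pathways were read from 7 lists of 71 genes, of which 12 fell and 3 rose under the same rule as in the injury comparison. Among vascular endothelial growth factor and angiopoietin ligands and coreceptors, Angpt2 and Pgf fell, 2 of 9. Angpt2, the angiopoietin stored by activated endothelium, stood at 820.4, 276 and 499.6 in control and at 5.70, 5.89 and 9.54 in injured libraries. Its libraries were far apart, with a log2 change of -4.90 (SE 0.54, adjusted p = 0.192). Pgf, placental growth factor, a ligand of the receptor encoded by Flt1, fell by 2.96. The ligand genes Vegfa, Vegfb and Vegfc did not pass.

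In the Notch list, Dll4, the ligand of tip and arterial cells, was the only one of 9 genes to fall, at 39.7, 5.78 and 114 in control and 0, 0 and 3.18 in injured libraries (log2 change -2.61, SE 0.59). Edn1, a ligand of the receptor encoded by Ednrb, fell by 2.57 on the log2 scale and was the only one of 10 genes of the endothelin, apelin, adrenomedullin and sphingosine list to pass. Its single pairs changed unevenly, by -1.46, -1.39 and -4.87 in the order of the labels. Of 7 lipid handling genes, only Fabp4 fell. Fabp4, a fatty acid binding protein of capillaries and adipocytes, stood at 2318, 2590 and 29146 in control and at 47.2, 156 and 298 in injured libraries. Like Cd36 and Ednrb it was highest in the CD140a(+)/Sca1(+) control library, and the log2 change was -5.28 (SE 0.64, adjusted p = 0.205). The 7 adipocyte markers summed to 8.33 to 24.6 in control and 1.96 to 15.8 in injured libraries, and 0 of the 5 tested passed. Among them, Plin1 stood at 9.71, 5.76 and 21.9 in control and at 4.81, 1.96 and 1.58 in injured libraries. It was thus highest in the same control library as Fabp4. Adipoq did not follow, at 3.00, 0 and 0 in control and 10.4, 0 and 1.59 in injured libraries, and Lep was listed at 0 in 5 libraries. Whether adipocytes contributed to Fabp4 was not tested.

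Thrombomodulin and vascular cell adhesion molecule genes went the other way. Thbd stood at 605, 34.0 and 52.1 in control and at 640.4, 639.9 and 289 in injured libraries, and rose by 2.06 (SE 0.78) on the log2 scale. The CD140a(-)/Sca1(+) pair hardly differed, and the other pairs carried the change. Vcam1, an integrin ligand that stromal cells also make, stood at 1659.9, 113 and 40.8 in control and at 2180.4, 1719 and 339 in injured libraries, and rose by 2.31 (SE 0.75). Bmp6, Id1 and Procr of the bone morphogenetic protein and shear list fell, as did Ackr1 among leukocyte adhesion genes. The falls of the first 3 were uneven. In the order of the labels, single pairs changed by -0.89, -0.76 and -3.47 for Bmp6 on the log2 scale. For Id1 they changed by -2.10, -3.97 and 0.02, and for Procr by -0.66, -2.85 and -1.88. Among 20 other endothelial regulators, Myct1, Foxo1 and Reln fell and the ETS family gene Elk3 rose. Reln changed by -0.66, -3.81 and -1.61 in the single pairs, in the same order. Myct1, a vascular membrane protein gene, stood at 113, 66.8 and 629 in control and at 0, 0 and 1.06 in injured libraries, with a log2 change of -4.75 (SE 0.63).

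Some counts may include reads of a neighbour. In GENCODE M21 on GRCm38 the exons of 10 of the 42 genes overlap another gene, among them Eng with Fpgs, Nos3 with Atg9b and Egfl7 with Agpat2 on the opposite strand, and Ramp2 with Vps25 on the same strand. Whether the counting used strand was not stated, so reads of these partners cannot be told apart. For place, Cdh5 lies on chr8:104101625-104144511, Pecam1 on chr11:106654217-106750628 and Ednrb on chr14:103814625-103844402, and reads of this library type come from the last part of each transcript.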

How the data were processed

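Freshly sorted stromal cells were profiled by QuantSeq 3' sequencing on an Ion Proton. Per the labels and the study's methods, the authors used FastX-Toolkit for trimming, STAR for alignment to GRCm38 (mm10), BRB-seqtools for counts per Ensembl gene and DESeq2 for normalization, in versions not repeated here. The deposited table is on a log2 scale, made by the authors with DESeq2's variance stabilization, and its lowest value of 2.567922203 stands for a gene without a read. Inverting that scale gave normalized counts, and the smallest steps between low values gave the size of 1 read in each library and so its depth. Of the low values, 53.3% to 59.3% per library lay within 0.02 reads of a whole number, so whole reads were not recovered and no count model was run. At the lowest depth, 3 reads correspond to 2.94 normalized counts.

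Injured and control libraries were compared with limma 3.58.1 (R 4.3.3) on the deposited log2 values of all 6 libraries, with subpopulation as block and moderated variances (2 residual and 4.11 prior degrees of freedom). Tested were the 15532 genes whose 80th percentile over the libraries was at least 8 after raising 2 to the deposited value, where a gene without a read stands at 5.93, so a gene high in control libraries alone passes. A call needs p under 0.05 and a 3-fold change, and Benjamini-Hochberg adjustment ran over all tested genes. The same fit compared each subpopulation with the mean of the others. The subpopulations stand in for replicates, so p-values measure the spread between their changes. The numbers that pair control and injured libraries name the same subpopulation, which is where the pairing comes from. The script was tested on simulated data. Tables and figures used Python 3.11.15, pandas 2.3.3, scipy 1.17.1 and matplotlib 3.10.9. Identifiers were matched to names for 22453 of 22483 genes.

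The 42 genes, the lists and the tests were chosen with earlier results of these data known. Values in every library are given for the 3 genes with the highest mean in each list, for all lymphatic and activation genes and for genes changed against the sign of the median. Pecam1 and the genes compared between control libraries (Ackr1, Reln, Ccl21a, Pdpn and Foxc2) were added after their values were seen. Single marker genes of other cell types were also named with their values known. Other pathway genes are named where they passed, with values for up to 3 per list. Changes in single pairs of Edn1, Bmp6, Id1, Procr and Reln were added later, because they were uneven. Alternatives changed the scale, filter, scaling, block and variance prior and left out libraries.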

Additional observations from a re-analysis of the deposited data

Results flagged for a closer look

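Single pairs of libraries went in opposite directions after injury for 11 of the 42 genes. The share of all tested genes with opposed pairs was not counted, and with 1 library per subpopulation and state these differences were not tested. In the injured CD140a(+)/Sca1(-) library, the one with most genes at 0, 5 genes were above their control while both other pairs were lower. On the log2 scale they were S1pr1 by 3.08, Aqp1 by 3.22, Clec14a by 1.49, Cyyr1 by 1.41 and Cd36 by 1.10. Clec14a stood at 25.7 normalized counts in control and 91.3 in injured cells of that subpopulation, and Cyyr1 at 6.46 and 31.7. Apln was the reverse, with a log2 change of -0.81 in that pair and higher values in both others.

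The remaining differences were small and rest on low levels. Ramp2 was higher by 0.55, Aplnr by 0.43 and Sele by 0.10 in the CD140a(+)/Sca1(+) pair alone. Car4 was higher by 0.44 and Prox1 by 0.27 in the CD140a(-)/Sca1(+) pair alone.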

How the results depend on the processing

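Under the 12 alternatives run for the injury comparison 0 endothelial genes rose, and between 16 (unmoderated test) and 28 fell, against 22. Of the 22, 15 were called under every alternative that tested them. Without the block for the subpopulation 21 fell, and Kdr was lost. Single calls were also lost for Sox17 and Gpihbp1 (no filter, unmoderated test) and for Nos3, Lyve1 and Selp (unmoderated test). All genes called lower numbered 866 and 907 with log2 of the normalized count plus 1 or plus 0.5, 1004 with scaling to the 75th percentile, 245 with no filter and 180 with the unmoderated test, against 537. All genes called higher numbered 181 with no filter and 114 with the unmoderated test, against 357, and 183 to 456 with 1 pair left out. The median change of the members tested (41, or 35 with the filter on normalized counts) was -3.77 and -4.26 with the pseudocounts of 1 and 0.5, -3.81 with 75th percentile scaling, -2.42 with the filter on normalized counts and -1.70 with quantile normalization. With quantile normalization, 440 genes were called lower and 459 higher. At an adjusted p under 0.05 (limma, Benjamini-Hochberg) stood 4 of the 42 genes among 15 in all with the filter on normalized counts, 7 among 95 with a trend in the variance prior, 2 among 10 with quantile normalization and 13 among 73 without the CD140a(+)/Sca1(-) pair, against 0. The causes were not tested.

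Fitted changes turned sign for genes that had not passed. With quantile normalization S1pr1 was -0.10, Ramp2 0.22 and Car4 0.079. With 1 pair left out, S1pr1 ranged from -1.43 to 0.95, Aqp1 from -1.23 to 1.03, Cd36 from -2.34 to 0.43, Car4 from -0.65 to 0.085, Ramp2 from -0.50 to 0.042 and Cyyr1 from -1.36 to 0.030.

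For the subpopulations, 0 genes were called higher in CD140a(-)/Sca1(+), where Sele had been, with quantile normalization or no block for the state. With the filter on normalized counts 0 were called as well, but there Sele was removed by the filter and not tested. In CD140a(+)/Sca1(-) 4 genes were lower with quantile normalization and 1 without the block, and in CD140a(+)/Sca1(+) 0 were higher without the block. With 1 library left out, 0 to 2 were higher and 0 to 2 lower in CD140a(-)/Sca1(+), 0 to 4 higher and 5 to 14 lower in CD140a(+)/Sca1(-), and 2 to 6 higher and 0 to 1 lower in CD140a(+)/Sca1(+). The 14 were reached without the injured CD140a(+)/Sca1(-) library. Without Ednrb the members' shares were 0.222%, 0.0780% and 0.408% in control and 0.0293% and 0.0304% in the injured Sca1(+) libraries.

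The planned edgeR and DESeq2 alternatives were not run, because whole reads could not be recovered. Values under 2.94 normalized counts rest on at most 3 reads in the shallowest library, and each subpopulation has 1 library per state, so animal to animal spread was not measured.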
